A study of Mus musculus with 2 samples.

Results

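The genes described here are 8 of the 32285 genes counted in the temporomandibular joint (TMJ) of the mouse: Spp1, Trem2, Tyrobp, Gpnmb, Apoe, Cd9, Lgals3 and Trem1. They are known for macrophages that take up lipid, and they were chosen by name, as the rows carrying these symbols in both count matrices. Single-cell RNA sequencing gave 2 libraries, a control from joints that received PBS and another from joints that received complete Freund's adjuvant (CFA), an oil emulsion of killed mycobacteria that inflames a joint. All mice were wild-type (WT) C57BL/6 females of 8 to 10 weeks, and each joint received a volume of 10 µL, with CFA at a concentration of 5 mg/mL, and the tissue was taken 3 weeks later. Besides the condyle and its disc, the tissue taken included the adjoining bone, muscle and ligament. Cells carrying CD45, a surface protein of leukocytes, were depleted with beads, so the macrophages below are those that the depletion left. Joints were collected with n = 3 and digested in a single tube per condition, so each library pools joints, and no mouse can be told from another. With 1 library per condition there is no replicate check, no test was made, and treatment and library cannot be told apart. Intervals in parentheses are exact 95% intervals that cover counting error only.

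Trem2 is a lipid-sensing receptor of macrophages that signals through the adaptor Tyrobp (DAP12), and Trem1, its neighbour in the same gene cluster, uses that adaptor to amplify inflammatory responses in neutrophils and monocytes. Spp1 encodes osteopontin, a secreted ligand of integrins and CD44 made by bone, cartilage and activated macrophages, and Gpnmb encodes a membrane glycoprotein found in osteoclasts and lipid-laden macrophages. Apoe carries lipid out of macrophages and glia, Cd9 is a tetraspanin that organizes membrane proteins, and Lgals3 encodes galectin-3, a lectin of activated macrophages.

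Spp1 is on chromosome 5 (104435118 to 104441050, plus strand, GRCm38), Gpnmb (49036546 to 49070929, plus strand) and Cd9 (125460266 to 125494791, minus strand) on chromosome 6, Tyrobp (30413760 to 30417585, plus strand) and Apoe (19696109 to 19699188, minus strand) on chromosome 7, and Lgals3 on chromosome 14 (47367751 to 47386160, plus strand). Trem1 (48232768 to 48246924) and Trem2 (48346401 to 48354147) are both on the plus strand of chromosome 17, with 99477 bp between the end of Trem1 and the start of Trem2. Annotated genes overlap Spp1 (Gm42793, same strand), Cd9 (Gm28809 and Gm26728, opposite strand) and Trem1 (the pseudogene AC241601.2, opposite strand), and counts of overlapping genes are uncertain where reads fall on both. The 250 bases before the start are shown for 4 genes whose cell sources differ below: Spp1, shared by bone, cartilage and macrophages, Gpnmb, shared by fibroblasts and macrophages, and the receptor pair. The sequences are from RefSeq (GRCm38.p6), whose promoter table held 7 of the 8 genes, and each is written 5′ to 3′ on the plus strand, which is the strand of all 4, with matches to the searched motifs in capitals.
Spp1, chr5:104434861-104435110: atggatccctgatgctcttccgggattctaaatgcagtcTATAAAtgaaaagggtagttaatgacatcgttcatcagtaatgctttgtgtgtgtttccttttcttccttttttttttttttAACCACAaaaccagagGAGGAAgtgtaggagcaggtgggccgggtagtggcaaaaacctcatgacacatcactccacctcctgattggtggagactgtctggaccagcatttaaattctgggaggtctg
Gpnmb, chr6:49036268-49036517: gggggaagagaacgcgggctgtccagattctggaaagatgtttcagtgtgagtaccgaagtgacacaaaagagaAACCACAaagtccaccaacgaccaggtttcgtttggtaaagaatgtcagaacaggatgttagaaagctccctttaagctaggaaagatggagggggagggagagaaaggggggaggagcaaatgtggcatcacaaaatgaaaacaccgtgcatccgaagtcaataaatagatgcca
Trem2, chr17:48346151-48346400: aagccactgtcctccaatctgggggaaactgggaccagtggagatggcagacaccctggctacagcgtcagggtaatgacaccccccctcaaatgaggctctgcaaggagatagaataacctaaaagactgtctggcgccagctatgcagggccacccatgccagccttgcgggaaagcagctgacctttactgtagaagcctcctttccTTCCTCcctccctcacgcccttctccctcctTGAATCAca
Trem1, chr17:48232489-48232738: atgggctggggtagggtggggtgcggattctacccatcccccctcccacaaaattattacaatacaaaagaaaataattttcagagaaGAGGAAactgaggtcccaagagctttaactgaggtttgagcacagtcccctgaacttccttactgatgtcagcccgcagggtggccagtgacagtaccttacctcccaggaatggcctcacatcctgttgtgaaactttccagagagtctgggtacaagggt
Motifs were searched on both strands, and no matches overlapped in these windows. The letters searched for the factor AP-1 were TGANTCA and those for the myeloid factor PU.1 were GAGGAA. The E-box of the MiT factors was searched as CATGTG and also in its palindromic form, written CACGTG. For RUNX factors the letters were AACCACA and for the TATA box they were TATAAA. Spp1 and Gpnmb each held 1 match to AACCACA, from 129 to 123 and from 176 to 170 bases before the start, and 4.40% of all 32851 windows of this length held one. GAGGAA or its complement lay in Spp1 (113 to 108 bases before the start), Trem1 (162 to 157) and Trem2 (40 to 35), and in 23.3% of all windows. Trem2 also matched TGANTCA from 9 to 3 bases before the start, as did 6.75% of windows, and Spp1 matched TATAAA from 211 to 206 bases before it, as did 12.4%. None of the 4 windows shown matched either form of the E-box. Of the windows not shown, that of Apoe matched GAGGAA or its complement from 250 to 245 bases before the start. That of Cd9 matched CATGTG or its complement from 38 to 33 bases before it, as did 12.3% of windows. These are matches of letters only.

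After barcodes with under 500 genes, over 10% mitochondrial or over 1% hemoglobin UMIs were left out, 2667 cells of the PBS and 4014 cells of the CFA library remained, with medians of 7022 and 6509.5 UMIs per cell (a UMI marks 1 captured RNA molecule). The hemoglobin limit removed 3178 PBS and 339 CFA barcodes, and the libraries shared 10 barcode sequences, of which 2 passed the limits. Cells were clustered without the 8 genes, and clusters were named by markers that do not include them. The macrophage-like class, led by the complement genes C1qa, C1qc and C1qb and by the mannose receptor gene Mrc1, held 18 PBS and 313 CFA cells. C1qa stood at 3305 UMIs per 1000000 UMIs (CPM) in its PBS cells and at 1937 in its CFA cells, and Mrc1 at 2011 and 333. The PBS cells were under the minimum of 20 set for a class, so their counts are given beside each value. The osteoclast-like class held 1 PBS and 268 CFA cells, with a median of 31650 UMIs per CFA cell. It was led by Mmp12, H2-M2 and Dcstamp and carried the bone resorption genes Acp5 (445 CPM) and Atp6v0d2 (237), whereas the collagenase gene Ctsk was at 85.6 and Ocstamp had 11 UMIs in all, so the name rests on part of the osteoclast markers (6 of 9). Macrophage markers were not at 0 in it, with C1qb at 412 CPM. A cluster led by Prtn3, Ctsg and Mpo, which also carried the monocyte genes Ly6c2 and Ccr2, is called mixed myeloid (37 and 133 cells). Neutrophil-like cells numbered 73 and 352, in a cluster with Il1r2 and Cxcr2 among its leading genes (19 and 182), a cluster led by the granule genes Camp, Ngp and Ltf (46 and 149) and a small cluster led by Abca13 (8 and 21).

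Over all kept cells, 7 of the 8 genes were at least 2-fold higher in the CFA library, all except Cd9, against 7.21% of the 17025 genes that had 10 UMIs or more in both libraries, and none was at least 2-fold lower, against 9.14%. Counts of genes below take the same minimum in both groups compared. The 8 genes were chosen with earlier results of these data known. Their counts beside the shares of all genes are therefore a description and no independent support. Trem2 had 66 UMIs in PBS cells and 4744 in CFA cells, or 2.43 (1.88 to 3.09) and 107 (104 to 109.8) CPM, a ratio of 44 (34.5 to 57.0). The adaptor Tyrobp stood at 104 and 750.0 CPM, a ratio of 7.21 (6.94 to 7.49), and Trem1 at 6.18 and 55.3, a ratio of 8.95 (7.65 to 10.5). All 3 genes of this receptor system were thus higher, with the largest ratio for Trem2. The ratio was 4.52 (4.41 to 4.63) for Spp1 (290.1 and 1311 CPM), 5.97 (5.48 to 6.51) for Gpnmb (21.3 and 127), 4.31 (4.23 to 4.39) for Apoe (466 and 2005) and 8.41 (8.12 to 8.70) for Lgals3 (129 and 1086). Cd9 was at 803 and 819 CPM, a ratio of 1.02 (1.0 to 1.04). Macrophage-, osteoclast- and neutrophil-like and mixed myeloid cells were 4.84% (4.05 to 5.72) of the kept PBS and 26.6% (25.2 to 28.0) of the kept CFA cells, so in these sums more myeloid cells and more RNA per cell cannot be told apart.

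In the PBS library most UMIs of Spp1, Gpnmb, Apoe, Cd9 and Lgals3 came from cells outside these 4 myeloid classes, and in the CFA library only those of Cd9 did. The myeloid classes held 0.646% of the Spp1 UMIs among PBS cells and 84.4% among CFA cells. Their shares were 0.172% and 85.8% for Gpnmb, 10.6% and 75.8% for Apoe, 32.0% and 92.8% for Lgals3, and 2.37% and 44.3% for Cd9. The receptors and the adaptor came from myeloid cells in both libraries, with 95.5% and 97.1% of the Trem2, 95.2% and 95.8% of the Trem1 and 83.9% and 95.1% of the Tyrobp UMIs. In the PBS library, chondrocyte-like (55.7%) and osteoblast-like cells (29.1%) led for Spp1, fibroblast-like cells (83.4%) for Gpnmb, erythroid-like cells (25.4%) for Apoe, Schwann-like cells (31.9%) for Cd9 and chondrocyte-like cells (29.3%) for Lgals3. In the CFA library osteoclast-like cells alone held 79.1% of the Spp1, 68.1% of the Trem2, 67.1% of the Lgals3 and 56.8% of the Gpnmb UMIs, while they were 6.68% of the kept cells and held 20.6% of all kept UMIs. Their shares were 48.1% for Tyrobp, 31.3% for Cd9, 27.8% for Apoe and 27.0% for Trem1. Macrophage-like cells held more of the Apoe UMIs (42.7%) and neutrophil-like cells more of the Trem1 UMIs (43.0%) than osteoclast-like cells did.

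**Figure D1:**
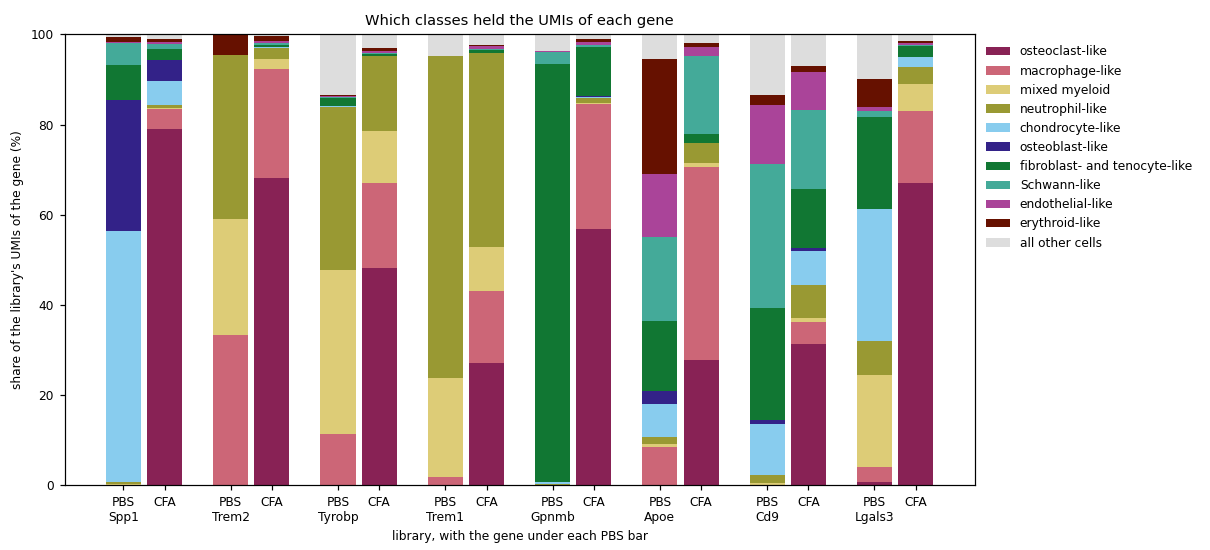
Share of each library's UMIs of a gene (percent, axis from 0 to the whole) held by each class, with a PBS and a CFA bar for each of the 8 genes. Chondrocyte- and osteoblast-like cells fill most of the PBS bar of Spp1 (55.7% and 29.1%) and osteoclast-like cells most of its CFA bar (79.1%).

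Trem2 was highest in macrophage- and osteoclast-like cells. In PBS macrophage-like cells it had 22 UMIs, or 112 CPM (70.0 to 169), and in CFA macrophage-like cells 1146 UMIs, or 261 CPM (246 to 277), a ratio of 2.34 (1.54 to 3.75). A single PBS cell held 10 of those 22 UMIs. Without the highest cell of each group (chosen after seeing the data) the PBS level was 65.0 CPM and the ratio 3.87 (2.21 to 7.52). Osteoclast-like cells of the CFA library stood at 353 CPM (341 to 366), 1.35-fold the level of the macrophage-like cells of that library (1.26 to 1.45). Mixed myeloid cells were lower, at 23.3 (13.5 to 37.2) CPM in PBS and 43.8 (35.9 to 53.0) in CFA cells. Endothelial-like cells, which served as cells that should lack the gene, had no Trem2 UMI in 757 PBS cells and 20 UMIs in 1046 CFA cells (2.90 CPM), and B cell-like cells had none in either library. Of the 66 Trem2 UMIs of the PBS library, 23 lay in a single cell of the neutrophil-like cluster with Il1r2 and Cxcr2, so the 134 CPM of that PBS cluster is all from 1 cell. The same cluster was at 17.6 in the CFA library. With each cell thinned to 1000 UMIs, 27.2% (22.0 to 33.0) of the osteoclast-like and 17.5% (13.4 to 22.2) of the macrophage-like CFA cells held a Trem2 UMI, against 0.670% (0.270 to 1.38) of the endothelial-like ones.

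Tyrobp, which serves many activating receptors, was present in all myeloid classes, at like levels when each class was taken whole. In the PBS library it stood at 1609 CPM (1437 to 1797) in macrophage-like cells (317 UMIs), 1410.3 in mixed myeloid and 1239 in neutrophil-like cells. In the CFA library the same classes were at 1433, 1599 and 1786, and osteoclast-like cells at 1753. The neutrophil-like clusters differed, with 1853 in PBS and 3119 in CFA cells of the cluster with Il1r2 and Cxcr2. The cluster led by Camp and Ngp was at 1131 and 1421, and the small cluster led by Abca13 at 208 and 284 (8 UMIs in each library). The CFA to PBS ratio was 0.891 (0.795 to 1.0) in macrophage-like, 1.13 (1.06 to 1.22) in mixed myeloid and 1.44 (1.35 to 1.54) in neutrophil-like cells, each far under the 7.21 seen over all cells. Mast cell-like cells (7 and 12 cells) were at 2266 and 1612, and an unnamed cluster led by Siglech, Stat4 and Flt3 at 509 and 588.

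Trem1 reached its highest level in neutrophil-like cells, which held 71.4% of its PBS and 43.0% of its CFA UMIs, while macrophage- and osteoclast-like cells together held 43.1% of the CFA UMIs. The neutrophil-like cluster with Il1r2 and Cxcr2 was highest, at 372 (286 to 475) CPM in PBS and 834 (767 to 905) in CFA cells, a ratio of 2.24 (1.73 to 2.95). The cluster led by Camp and Ngp stood at 86.0 (64.4 to 113) and 201 (184 to 220.3), a ratio of 2.34 (1.76 to 3.17). Trem1 was thus higher in the CFA library within both clusters, by like ratios. Mixed myeloid cells were at 50.6 and 97.9, a ratio of 1.93 (1.36 to 2.82). Among CFA cells, macrophage-like cells were at 90 CPM (81.3 to 99.3) and osteoclast-like cells at 72.6 (67.2 to 78.3). The PBS macrophage-like cells had 3 UMIs, and the ratio of 5.91 has an interval from 2.01 to 28.8. Of 10 neutrophil markers, 9 were also higher in CFA than in PBS macrophage-like cells, all except S100a8, with a summed level of 4863 against 3148 CPM. Among them Retnlg was at 10.2 and 442 CPM and Ngp at 5.08 and 125, and Ly6g had no UMI in the PBS cells. In osteoclast-like CFA cells the summed level of these 10 markers was 3495 CPM, lower than in macrophage-like CFA cells. Ngp was higher there, at 278. The part of neutrophil RNA in the macrophage- and osteoclast-like Trem1 levels was not tested. In CFA macrophage-like cells Trem1 was 0.262 of its level in neutrophil-like cells (0.233 to 0.295), whereas Trem2 was 6.65-fold its neutrophil-like level (5.51 to 8.09). The receptors of the shared adaptor therefore differed in which class was higher.

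**Figure D2:**
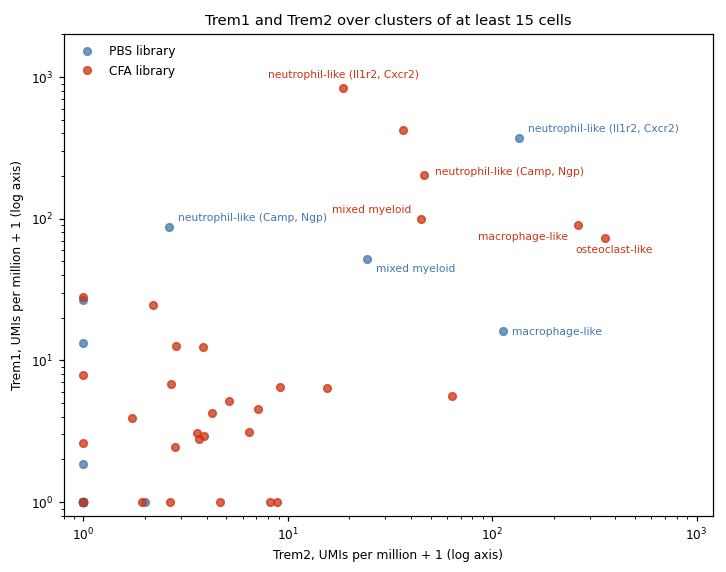
Trem1 against Trem2, each as CPM plus 1 on log axes, with 1 point for each cluster of at least 15 cells in each library. CFA macrophage- and osteoclast-like cells lie at the highest Trem2 (261 and 353 CPM) and the CFA neutrophil-like cluster with Il1r2 and Cxcr2 at the highest Trem1 (834), and the PBS point of that cluster owes its Trem2 to 1 cell.

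Spp1 was close to absent from PBS macrophage-like cells and high in many other cells. PBS macrophage-like cells held 1 Spp1 UMI among 18 cells, or 5.08 CPM (0.129 to 28.3), and CFA macrophage-like cells held 2574, or 587 CPM (564 to 609.6), a ratio of 116 with an interval from 20.7 to 4564. A single CFA macrophage-like cell held 538 of these UMIs, and without it the level was 470.5 CPM. The median was 1 UMI per CFA cell, and 34 of the 313 cells held over 10. Osteoclast-like CFA cells held 46047 UMIs, or 5033 CPM (4987 to 5079), 8.58-fold the CFA macrophage-like level (8.25 to 8.93). Without the highest cell of each class (chosen after seeing the data) this ratio was 10.4 (9.94 to 10.9). Osteoblast-like cells, which secrete osteopontin into bone matrix, were at 4387 CPM (4209.7 to 4571) in PBS and 4860.4 (4678 to 5048) in CFA cells, a ratio of 1.11 (1.05 to 1.17) that turned to 0.721 when the 5% of cells that scored highest as doublets were left out. Osteoclast-like CFA cells and osteoblast-like cells of both libraries thus had like Spp1 levels. Chondrocyte-like cells fell into a cluster of both libraries, with the mineralization genes Ibsp and Panx3 among its leading genes (59 PBS and 87 CFA cells), and a cluster of 28 PBS cells with none in the CFA library. In the shared cluster Spp1 was at 2867 and 1576 CPM, a ratio of 0.550 (0.524 to 0.576).

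Lower Spp1 levels were found in nerve and connective tissue cells. The Schwann-like class was at 246 CPM (222 to 272) in PBS and 379 (351 to 408) in CFA cells. The fibroblast-like class was at 65.4 and 244 CPM, a ratio of 3.73 (3.31 to 4.21), which turned to 0.785 when cells were named one by one. Its 3 clusters differed. The ratio was 49.9 (27.8 to 100.3) in the cluster led by Pi16 and Mfap5, with 11 UMIs in 138 PBS cells and 968 in 166 CFA cells, 2.51 (2.01 to 3.15) in that led by Apod and Inmt and 1.03 (0.815 to 1.30) in that led by Angptl1 and Cilp. Tenocyte-like cells were at 133 and 98.6 CPM.

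Gpnmb came from fibroblast-like cells in the PBS library and from fibroblast-, macrophage- and osteoclast-like cells in the CFA library. PBS macrophage-like and mixed myeloid cells held no Gpnmb UMI in 18 and 37 cells, which allows levels of up to 15.2 and 4.10 CPM (3 counts). CFA macrophage-like cells held 1567 UMIs, or 357 CPM (339.6 to 375), at least 23.4-fold higher than that limit in PBS macrophage-like cells, and osteoclast-like cells 3212, or 351 (339 to 363). The ratio of osteoclast-like to macrophage-like CFA cells was 0.983 (0.925 to 1.05), but 1 macrophage-like cell held 489 of the UMIs of its class. Without the highest cell of each class (chosen after seeing the data) the ratio was 1.22 (1.13 to 1.31). The 75th percentile of Gpnmb UMIs per 10000 UMIs of a cell was 1.17 in macrophage-like and 3.23 in osteoclast-like CFA cells. Mixed myeloid and neutrophil-like CFA cells were at 7.85 and 18.2. Fibroblast-like cells were at 92.3 CPM (84.2 to 101) in PBS and 97.8 (89.7 to 107) in CFA cells, a ratio of 1.06 (0.935 to 1.2). Tenocyte-like cells were at 26.1 and 69.9, a ratio of 2.67 (1.89 to 3.81).

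Apoe reached its highest level in a small glial cluster led by Fabp7 and Adgrb3. Its 3 PBS cells stood at 49246 CPM and its 16 CFA cells at 41547, a ratio of 0.844 (0.803 to 0.887). This cluster belongs to the Schwann-like class, whose Apoe ratio of 5.49 (5.25 to 5.73) goes with a larger number of these cells. PBS macrophage-like cells were at 5494 CPM (5171 to 5831) with 1082 UMIs, CFA macrophage-like cells at 8675 (8588 to 8763), a ratio of 1.58 (1.49 to 1.68), and osteoclast-like CFA cells at 2711 (2677 to 2745). Between these CFA classes Apoe ran opposite to Spp1, with an osteoclast-like level 0.312 of the macrophage-like one (0.308 to 0.318). In the neutrophil-like cluster led by Camp and Ngp it was at 203 and 1527 CPM, a ratio of 7.53 (6.30 to 9.07), and in the cluster with Il1r2 and Cxcr2 at 267 and 334. The highest of the 352 CFA neutrophil-like cells held 1283 Apoe UMIs, and 7 held over 100. The ratio of the whole neutrophil-like class was 5.81 (5.0 to 6.79), and it was 1.30 when the 5% of cells that scored highest as doublets were left out. Osteoblast-like cells were at 678 in PBS and 132 in CFA cells, a ratio of 0.194 (0.149 to 0.251). The chondrocyte-like ratio of 0.0638 (0.0488 to 0.0820) lies between different clusters, since the PBS-only cluster was at 3157 CPM and the shared cluster at 42.5 and 33.9.

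Cd9 and Lgals3 were found in many classes. Cd9 was highest in Schwann-like cells, at 4561 and 3506 CPM, and stood at 1364 and 1442 in chondrocyte-like cells. In macrophage-like cells it was at 122 CPM (78.1 to 181) in PBS (24 UMIs) and 414 (395 to 434) in CFA cells, a ratio of 3.40 (2.28 to 5.32), and osteoclast-like cells were at 1243 (1221 to 1266). The PBS macrophage-like level was under that of PBS endothelial-like cells (486), and the CFA level was near that of CFA endothelial-like cells (447). In the neutrophil-like cluster with Il1r2 and Cxcr2 Cd9 was at 395 and 1839.6, a ratio of 4.66 (3.65 to 6.04). Lgals3 was at 579 CPM (477 to 695) in PBS macrophage-like cells (114 UMIs), 1761 (1722 to 1801) in CFA macrophage-like and 3537 (3499 to 3576) in osteoclast-like CFA cells, with a CFA to PBS ratio of 3.04 (2.53 to 3.69) in the macrophage-like class. Mixed myeloid cells were at 985 and 1177, and chondrocyte-like cells at 577 and 543. An unnamed cluster led by Prg4, the lubricin gene, carried Lgals3 at 441 (389 to 499) in 32 PBS cells and 813 (683 to 961) in 7 CFA cells.

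**Figure D3:**
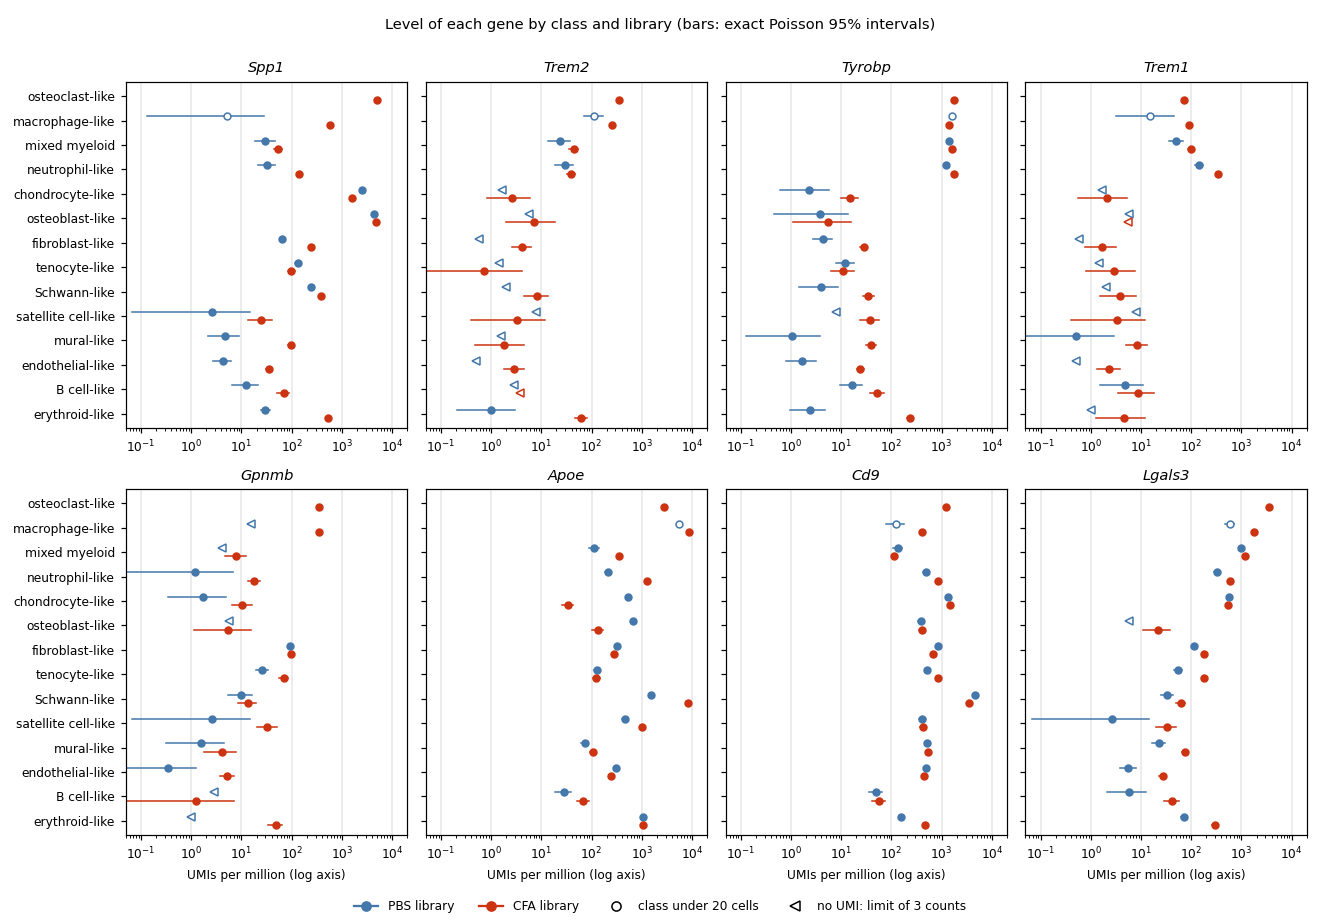
CPM of each gene (log axis) in 14 classes, PBS in blue and CFA in red, with exact Poisson 95% intervals, open circles for classes under 20 cells and open triangles at the limit of 3 counts where no UMI was found. Trem2, Tyrobp and Trem1 are highest in myeloid classes, while Spp1 is about as high in osteoblast-like cells (4387 and 4860.4) as in osteoclast-like CFA cells (5033).

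Within the macrophage-like class, 5 genes had enough UMIs on both sides, and of these Trem2, Cd9 and Lgals3 were at least 2-fold higher in CFA than in PBS cells, against 4.6% of the 3718 such genes, and none was at least 2-fold lower, against 14.8%. The other 3 genes, Spp1, Gpnmb and Trem1, had 1, 0 and 3 UMIs in the PBS cells and are described above by their levels, with no count. The class differed between the libraries in its own markers, since Mrc1, Folr2 (366 and 50.4 CPM) and Cd163 (142 and 5.70), genes of resident macrophages, were lower in its CFA cells. The Trem2 ratio of 2.34 was under 2-fold when cells were named one by one (1.63) and as a mean over cells (1.98), and it was 5.79 without the cells that scored highest as doublets, which left 12 PBS cells. The Cd9 and Lgals3 ratios stayed over 2-fold under the alternatives run that gave a value, from 2.60 to 8.31 and from 2.51 to 8.37. Taking macrophage- and osteoclast-like cells together (19 and 581 cells, chosen after seeing the data), the Apoe ratio turned to 0.877. In mixed myeloid cells 1 of 7 genes compared, Apoe, was at least 2-fold higher and none lower (background 3.25% higher and 3.94% lower), at 112 and 348 CPM. In neutrophil-like cells Spp1, Apoe and Trem1 were at least 2-fold higher, 3 of 7, and none was lower (background 4.37% higher and 15.6% lower). Over the alternatives the neutrophil-like ratio ran from 2.41 to 10.8 for Spp1, but from 1.30 to 15.2 for Apoe and from 1.64 to 3.49 for Trem1, so the last 2 were under 2-fold in part of them.

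Among CFA cells, 3 genes were at least 2-fold higher in osteoclast-like than in macrophage-like cells (Spp1, Cd9 and Lgals3), against 3.12% of the 10675 genes compared, and Apoe was at least 2-fold lower, against 12.6%. The ratio was 1.22 (1.19 to 1.26) for Tyrobp and 0.806 (0.711 to 0.916) for Trem1. Macrophage-like cells were at least 2-fold above mixed myeloid cells of that library for 5 genes (Spp1, Trem2, Gpnmb, Apoe and Cd9, background 9.68%) and 2-fold below them for none (background 14.9%). Of these ratios, that of Gpnmb was 45.5 (29.0 to 75.7), that of Apoe 24.9 (23.3 to 26.7) and that of Spp1 11 (9.22 to 13.2).

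**Figure D4:**
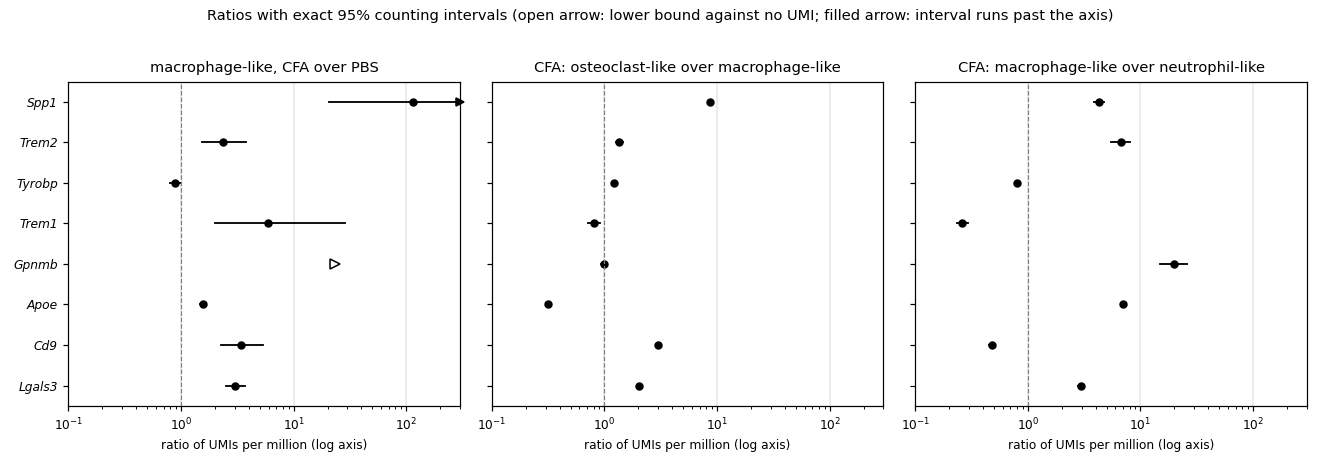
Ratio of CPM (log axis) for each gene in 3 comparisons of myeloid cells, with exact 95% counting intervals, among them CFA over PBS macrophage-like cells and osteoclast-like over macrophage-like CFA cells. Tyrobp lies near 1 in these comparisons (0.891 and 1.22), while Spp1 lies above (116 and 8.58).

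The genes also differed in how evenly single cells carried them. In osteoclast-like CFA cells the number of Spp1 UMIs per 10000 UMIs of a cell had a median of 17.0, 10th and 90th percentiles of 0.574 and 128 and a highest cell of 437. In macrophage-like CFA cells the median was 0.222 and the highest cell 175. Tyrobp was even, with 10th and 90th percentiles of 8.81 and 24.7 in osteoclast-like cells. Gpnmb was uneven like Spp1, with a median of 0 and a highest cell of 75.9 in macrophage-like CFA cells. Over the whole CFA library, 33 cells (0.822% of those kept) held 50% of the Spp1 UMIs, 28 of them osteoclast-like, and 29 cells held 50% of the Gpnmb UMIs, 22 of them osteoclast-like. For Cd9 and Tyrobp the same share took 378 and 203 cells. In the PBS library 8 cells held 50% of the Spp1 UMIs, 6 of them chondrocyte-like.

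**Figure D5:**
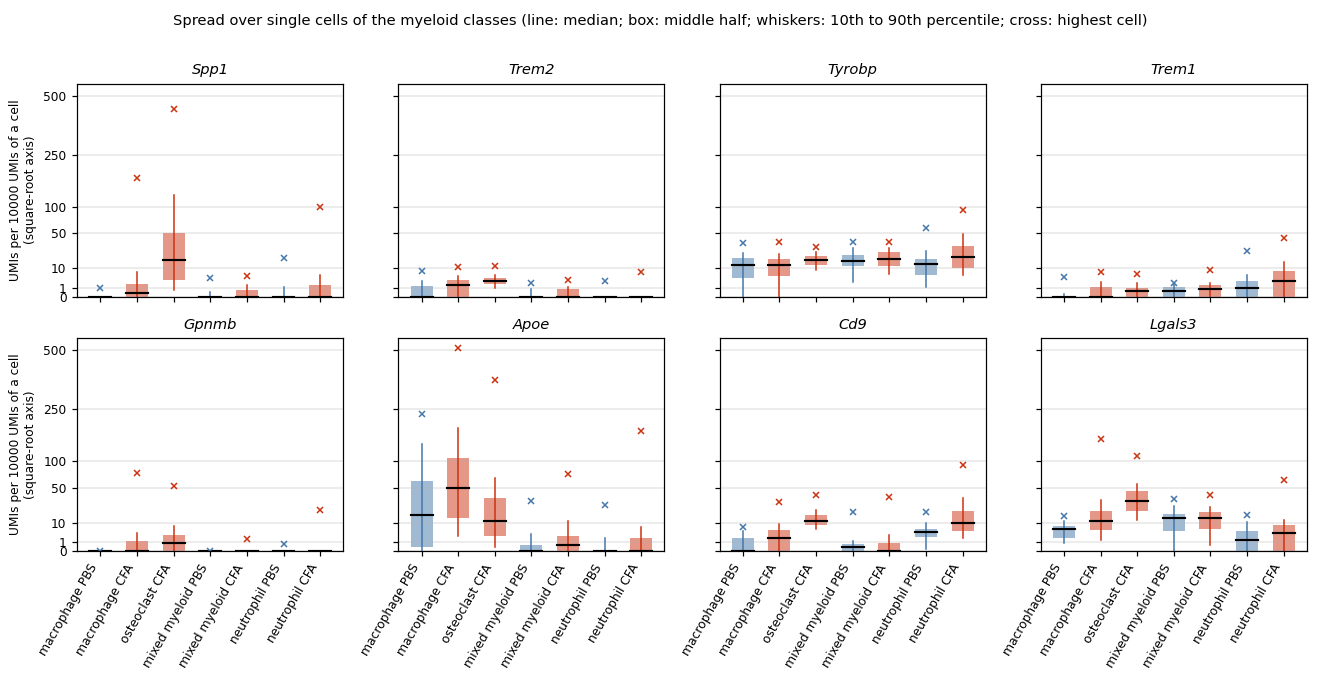
UMIs of each gene per 10000 UMIs of a cell (square-root axis), PBS in blue and CFA in red, as median (line), middle 50% (box), 10th to 90th percentile (whiskers) and highest cell (cross). Spp1 spreads from 0.574 to 128 between the 10th and 90th percentiles of osteoclast-like cells, and Tyrobp from 8.81 to 24.7.

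The genes were often found in the same deep cells. At 1000 UMIs per cell the rank correlations given here were low, but the counts were sparse. Of 309 macrophage-like CFA cells, 210 then held neither Spp1 nor Trem2, 45 held Spp1 alone, 45 Trem2 alone and 9 both. Correlations of such counts cannot show how closely the levels were related. Of the 268 osteoclast-like CFA cells, 245 held UMIs of both Spp1 and Trem2 and 164 of both Spp1 and Gpnmb. Of the 313 macrophage-like CFA cells, 121 held both Spp1 and Trem2, 36 Spp1 without Trem2, 105 Trem2 without Spp1 and 51 neither. For Trem2 and Trem1, 99 held both, 127 Trem2 without Trem1, 23 Trem1 without Trem2 and 64 neither. Both Trem2 and Gpnmb were found in 84 cells, and both Spp1 and Gpnmb in 61. With 1000 UMIs per cell, the Spearman correlations over 309 macrophage-like cells were -0.01 for Spp1 with Trem2, -0.01 for Spp1 with Gpnmb and 0.24 for Trem2 with Apoe, and over 268 osteoclast-like cells 0.30 for Spp1 with Lgals3. These describe cells of 1 library with few UMIs per gene and carry no test.

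In fibroblast-like cells 2 of 6 genes compared were at least 2-fold higher in the CFA library (Spp1 and Tyrobp, background 4.79%), in Schwann-like cells 1 of 5 (Apoe, background 4.14%) and in tenocyte-like cells 2 of 6 (Gpnmb and Lgals3, background 3.38%), and none was at least 2-fold lower in these classes (backgrounds 3.6%, 2.14% and 2.49%). Apoe was at least 2-fold lower in chondrocyte-like (1 of 4, background 4.38%) and osteoblast-like cells (1 of 3, background 5.69%), and none was higher there (backgrounds 2.71% and 2.7%). In endothelial-like cells 3 of 5 were at least 2-fold higher (Spp1, Tyrobp and Lgals3, background 3.45%), and none was lower (background 4.24%). Their levels there were low, with Spp1 at 4.24 (2.75 to 6.26) and 34.9 (30.6 to 39.6) CPM and Tyrobp at 1.70 (0.814 to 3.12) and 24.0 (20.4 to 27.9). Further classes also held more of these UMIs in the CFA library. In B cell-like cells 3 of 4 genes compared were at least 2-fold higher (Spp1, Tyrobp and Apoe, background 2.3%), in erythroid-like cells 3 of 4 (Spp1, Cd9 and Lgals3, background 16.9%), in mural-like cells 1 of 3 (Lgals3, background 1.97%) and in satellite cell-like cells 1 of 2 (Apoe, background 3.81%). None was at least 2-fold lower in these 4 classes, against backgrounds of 1.73%, 2.29%, 3.68% and 6%. Among the genes not counted because a class held under 10 of their PBS UMIs, Tyrobp had 6 PBS and 63 CFA UMIs in Schwann-like, 4 and 29 in chondrocyte-like, 2 and 89 in mural-like and 7 and 199 in erythroid-like cells.

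Free RNA of the cell suspension can enter the droplets of other cells. The number of Spp1 UMIs per Tyrobp UMI is given here for classes of the CFA library. It was 1.45 (1.19 to 1.78) in endothelial-like, 1.34 (0.879 to 2.06) in B cell-like, 0.652 (0.316 to 1.30) in satellite cell-like, 2.44 (1.90 to 3.16) in mural-like and 2.28 (1.92 to 2.70) in erythroid-like cells, and 1.75 (1.72 to 1.77) over all kept cells. It was 2.87 (2.82 to 2.92) in osteoclast-like, 0.409 in macrophage-like and 0.0772 in neutrophil-like cells. Schwann-like cells had 10.9 (8.43 to 14.4), fibroblast-like cells 8.67 (7.33 to 10.3), tenocyte-like cells 8.93 (5.23 to 16.4) and chondrocyte-like cells 104 (72.4 to 156). These classes already held more Spp1 than Tyrobp UMIs in the PBS library, with 376 and 6 in Schwann-like and 4396 and 4 in chondrocyte-like cells. The number therefore cannot tell free RNA from RNA of the cells themselves. The part of free RNA in any level was not tested. Erythroid-like cells, whose CFA cells were shallow (median of 2218 UMIs against 18038 in the PBS library), carried Spp1 at 29.9 and 527, Trem2 at 1.01 and 62.8 and Tyrobp at 2.35 and 231 CPM in the PBS and CFA libraries. With cells thinned to 1000 UMIs, 5.65% (4.33 to 7.23) of endothelial-like and 8.33% (4.38 to 14.1) of B cell-like CFA cells held an Spp1 UMI, with unthinned medians of 4402 and 4036 UMIs per cell. The share was 11.2% (8.08 to 15.1) in neutrophil-like, 17.5% (13.4 to 22.2) in macrophage-like, 20.7% (16.6 to 25.2) in Schwann-like, 60.7% (40.6 to 78.5) in osteoblast-like and 66.0% (60 to 71.7) in osteoclast-like cells, and the neutrophil- and macrophage-like intervals both overlapped the B cell-like one. Without thinning the shares of endothelial-, B cell-, neutrophil-, macrophage-, Schwann-, osteoblast- and osteoclast-like cells were 19.7%, 26.8%, 41.5%, 50.2%, 33.8%, 82.1% and 94.0%.

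Genes of the surrounding pathways were counted in macrophage-like cells, CFA over PBS, by the same 2-fold mark and the same minimum of 10 UMIs on both sides, to be read against the 4.6% of such genes that were higher and the 14.8% that were lower. The lists too were chosen with earlier results of these data known, so their counts are a description. Of 10 partners of Trem2 signalling, 1 was higher and 1 lower. These were Adam17, a sheddase of Trem2, at 122 CPM in PBS and 254 in CFA cells (ratio 2.09, 1.4 to 3.27), and the kinase gene Btk at 96.5 and 42.2 (0.437, 0.272 to 0.742). The kinase gene Syk, whose product binds Tyrobp, had a ratio of 0.999. Of 7 osteopontin receptor genes, 2 were higher, the integrin chains Itgb5 (2.57, 1.46 to 5.0) and Itgav (2.18, 1.48 to 3.35), and the median log2 ratio of the list was 0.69 against -0.27 for all genes. Of 5 cholesterol efflux and oxysterol genes, 1 was higher, the exporter Abca1 at 366 and 933 CPM (2.55, 2.02 to 3.27), with a list median of 0.83. Of 2 Apoe receptor genes, Lrp1 was higher (2.26, 1.47 to 3.66).

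Of 15 further genes of lipid-associated macrophages, 5 were higher and 1 lower, with a median of 0.62. The fatty acid-binding protein gene Fabp5 was at 76.2 and 1524 CPM (20, 12.1 to 35.8), and the lipoprotein lipase gene Lpl at 325 and 141 (0.434, 0.335 to 0.571). Of 2 MiT factors, transcription factors of lysosomal genes, Mitf was higher, at 284 and 606 (2.13, 1.64 to 2.83). Of 6 other tetraspanins and galectins, 1 was higher and 2 were lower, among them Cd81 at 249 and 50.1 (0.201, 0.147 to 0.281), opposite to Cd9. A single osteoclast gene had 10 UMIs in each library, Nfatc1 (ratio 0.920, 0.517 to 1.80). The others are given by their UMIs, and Dcstamp had 0 in PBS and 380 in CFA cells, Mmp12 0 and 887, and Ctsk 5 and 67. No gene of the Trem family and Trem1 ligand list had 10 in each, and the intervals of Trem3 (2.14, 0.717 to 10.5) and Pglyrp1 (2.10, 0.887 to 6.53) include 1. In osteoclast-like against macrophage-like CFA cells, where 3.12% of all genes were higher and 12.6% lower, 7 of the 17 lipid-associated genes were higher and none lower, with Lpl at 1008 against 141 CPM. Itgax, among these 7, was a marker that had named the osteoclast-like class, so its place in the count is not independent of that name. In the same comparison 6 of 8 osteoclast genes were higher, several of which had named the class.

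Over 26 points, the classes of at least 20 cells in each library, the genes whose log2 level followed each gene most closely were listed by Pearson's r. The points share 2 libraries and differ in depth, so r is a description. Trem2 was followed by Cd68 (0.98), Tbxas1 (0.97), Cd300c2, Ccl9 and Bcl2a1b, Tyrobp by Alox5ap (0.98), Wfdc17, Cybb, Lilrb4a and Clec12a, and Trem1 by Mcemp1 (0.98), Csf3r, Cd300lb, Lilr4b and Hcst. Gpnmb was followed by Mmp19 (0.87), Cfb, Ctsb, Fth1 and Abcc1, and Lgals3 by Pgam1 (0.89), Pgk1, Cd44, Tlr2 and Slc16a3. The values were lower for the genes with several sources, with Fmn1 at 0.84 and Gpc1 at 0.76 for Spp1, Wsb2 at 0.85 for Cd9 and Cln8 at 0.79 for Apoe. Among the 8 genes, r was 0.94 for Tyrobp with Trem1, 0.86 for Trem2 with Tyrobp, 0.75 for Trem2 with Trem1 and 0.63 for Trem2 with Gpnmb, against 0.34 for Spp1 with Trem2 and 0.09 for Spp1 with Tyrobp.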

How the data were processed

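Filtered single-cell UMI count matrices, deposited by the authors as whole counts per gene and barcode, were used as given. The submitters' processing notes name Cell Ranger 7.0.1 and mm10. Barcodes with at least 500 genes, at most 10% mitochondrial and at most 1% hemoglobin UMIs were kept. The kept cells held 27201994 (PBS) and 44432717 (CFA) UMIs. In R 4.3.3 with Seurat 5.3.0 and sctransform 0.4.2, libraries were normalized, integrated on 3000 genes without the 8 genes, and clustered with 200 principal components at resolution 1.5. Of 36 clusters, 30 were named from at least 3 markers detected in at least 25% of cells, as clusters and not cell by cell. Scrublet in scanpy 1.11.5 called 21 PBS and 2 CFA cells doublets, too few to rely on, and none was removed. UMIs were summed per class and library and divided by all UMIs of the class, as counts per 1000000 (CPM). Poisson, Clopper-Pearson and conditional ratio intervals were computed in Python 3.11.15 with scipy 1.17.1. Genes were counted with at least 10 UMIs in each group, since the filter set at first, which also took genes with 20 in 1 group, let in genes only through the group where they are high. Shares of cells were computed after thinning to 1000 UMIs, without the shallower cells (55 PBS, 129 CFA). The ratio and naming steps were tested on simulated data. The naming simulation raised the same markers that the naming then scored. It checks the procedure and cannot show that the class names given here are right. Genes named are the 8 genes, the 2 highest and 2 lowest ratios of each list with at least 20 UMIs, and the 5 closest genes by correlation of log2(CPM + 10), and Syk, Lpl between CFA classes and the class markers were added after values were seen. The 8 genes and the 9 lists were chosen with earlier results of these data known. Alternatives were other clusterings, limits and scalings. Positions are from GENCODE M21 (GRCm38).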

Additional observations from a re-analysis of the deposited data

Results flagged for a closer look

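For 3 genes the CFA to PBS ratio lay over 1.5 in 1 class and under the inverse of that in another, with counting intervals that do not overlap. With 1 library per condition these differences between classes were not tested. Spp1 had a ratio of 17.6 (14.0 to 22.4) in erythroid-like cells, at 29.9 and 527 CPM, and of 0.640 (0.611 to 0.671) in chondrocyte-like cells, at 2461 and 1576. The erythroid-like CFA cells had a median of 2218 UMIs against 18038 in the PBS library. The chondrocyte-like direction also held in the cluster of both libraries (0.550), and the class ratio ran from 0.311 to 0.917 over the alternatives. Of the 8 PBS cells that held 50% of the Spp1 UMIs of that library, 6 were chondrocyte-like. Apoe had a ratio of 5.81 (5.0 to 6.79) in neutrophil-like and of 0.0638 (0.0488 to 0.0820) in chondrocyte-like cells. Over the alternatives the first ran from 1.30 to 15.2 and the latter from 0.0295 to 0.797, and 1 neutrophil-like CFA cell held 1283 of the 3854 Apoe UMIs of its class. Within clusters the first was 7.53 (Camp and Ngp) and 1.25 (Il1r2 and Cxcr2), and the latter was 0.797 in the cluster of both libraries. Cd9 had a ratio of 3.12 (2.72 to 3.57) in erythroid-like cells and of 0.240 (0.175 to 0.326) in the unnamed cluster led by Siglech, Stat4 and Flt3, where it was at 299.96 and 72.0 CPM.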

How the results depend on the processing

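No paired analysis was possible because each condition has 1 library, and no replicate could be left out. Over all kept cells, 7 of the 8 genes stayed over 2-fold under every alternative run, and Cd9 stayed near 1. Without the hemoglobin limit the CFA to PBS ratios were 4.32 for Spp1, 7.97 for Tyrobp, 6.6 for Gpnmb, 5.19 for Apoe, 1.24 for Cd9 and 9.71 for Lgals3. Scaled by the median ratio of genes, which moved the median gene by -0.22 on the log2 scale over all cells and -0.27 in macrophage-like cells, they were 5.25 for Spp1, 8.38 for Tyrobp, 6.94 for Gpnmb, 5.0 for Apoe, 1.19 for Cd9 and 9.77 for Lgals3. As a mean over cells they were 2.91 for Spp1, 26.7 for Trem2, 5.42 for Tyrobp, 3.12 for Gpnmb, 3.23 for Apoe and 6.07 for Lgals3, and Cd9 reversed to 0.985. A limit of 1000 genes or of 20% mitochondrial UMIs changed no ratio beyond its interval. In macrophage-like cells, with 18 PBS cells, the ratios depended on the clustering. At resolution 0.8 (19 and 582 cells) they were 1.05 for Tyrobp, 8.31 for Cd9 and 4.30 for Lgals3, and Apoe reversed to 0.878. With each cell named on its own (10 and 182 cells) they were 1.2 for Apoe, 7.91 for Cd9 and 8.37 for Lgals3. With the 5% of cells that scored highest as doublets left out (12 and 308 cells) they were 5.79 for Trem2, 2.14 for Apoe and 2.51 for Lgals3. Scaled by the median ratio of genes, they were 1.08 for Tyrobp and 1.91 for Apoe. With macrophage- and osteoclast-like cells together, an alternative chosen after seeing the data, they were 1.05 for Tyrobp, 8.31 for Cd9 and 4.30 for Lgals3, and Apoe reversed to 0.877. Less the endothelial-like level, also chosen after seeing the data, Cd9 in macrophage-like cells gave no value, since the endothelial-like level was higher. Log-normalized clustering and clustering without the hemoglobin limit named no macrophage-like class, so they gave no value there. Trem2 in neutrophil-like cells gave no ratio under 3 alternatives, since those PBS cells held no Trem2 UMI. Elsewhere Spp1 in fibroblast-like cells reversed to 0.785 and Cd9 in chondrocyte-like cells to 0.914 with each cell named on its own, and Spp1 in osteoblast-like cells to 0.721 without the highest doublet scores. The cause of these differences was not tested. Of the ratios by class over the alternatives, 147 stayed within the counting interval, 89 moved beyond it and 5 reversed. The filter set at first, which also took genes with 20 UMIs in 1 group, let in genes through the group where they are high. By it, 6 of 8 genes compared were higher in macrophage-like cells (background 10.9%) and 2 of 6 in chondrocyte-like cells (4.06%). The counts were 2 of 6 in Schwann-like (7.15%), 5 of 7 in endothelial-like (4.67%) and 3 of 5 in mural-like cells (3.28%). They were 4 of 5 in satellite cell-like (8.28%) and 6 of 7 in erythroid-like cells (17.5%). Neutrophil-like cells had 4 of 8 (8.29%), fibroblast-like 3 of 7 (7.17%) and B cell-like 4 of 5 (2.63%). With 10 in each group, a filter chosen after seeing the data, the counts in this order were 3, 0, 1, 3, 1, 1, 3, 3, 2 and 3. Shallow classes limit low genes, since 3 counts in PBS macrophage-like cells are 15.2 CPM.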
